A study of Mus musculus with 2 samples.

Results

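The transcripts described here are 1209 noncoding transcripts known from expressed sequence tags (ESTs) and cDNA clones, each measured by 1 probe on the Arraystar Mouse LncRNA v2.0 array in mouse liver. The probes were chosen by name: among the 59709 probes that were neither control spots nor negative sequences, they carry a sequence accession followed by the same suffix as the lincRNA probes, and they are not named as a lincRNA exon, a human or mouse lincRNA, an ultraconserved region or a protein-coding transcript. The naming rule uses no measured value.

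RNA of male C57BL/6J mice aged 10 to 12 weeks was hybridized to 1 array for each condition. The control array held liver RNA of a control that the study treats as sham, and the labels do not say whether livers were mixed for it. The I/R array held RNA of 3 mixed livers from animals in which blood flow to 70% of the liver was stopped for 1 hour and then restored for 6 hours. With 2 arrays there is no replicate, no test between the conditions was possible, and p-values are not given. "Rose" and "fell" mean that the quantile-normalized signal changed at least 1.5-fold upwards, or to at most 0.7 of the control signal, on these arrays, and fewer cells of a type cannot be told apart from less RNA per cell.

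An EST is a short read from the end of a cDNA clone, taken to catalogue which transcripts a tissue makes, while a full-length cDNA record holds the whole insert of a clone. Many such records do not encode a protein, and the long noncoding RNAs among them can act on chromatin, on transcription of neighbouring genes, or as scaffolds and decoys for proteins and small RNAs, although for most of them no function is known. Interrupted and restored blood flow in the liver is known to deplete hepatocytes of ATP, to release reactive oxygen species, and to draw in and activate macrophages and neutrophils.

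By the letters of their accessions, 1034 of the 1209 probes stand for EST records and 125 for cDNA records, and 50 have letters that do not settle the kind of record. There were 45 different letter codes. No accession was found among the symbols, synonyms or transcripts of a RefSeq gene table, so the transcripts are named here by accession, with neither genome position nor function. Each probe had 1 spot on an array, so a fold of a transcript rests on 2 spots. The array named none of the 28 marker genes listed for hepatocytes, macrophages, neutrophils, erythrocytes and endothelial cells through the 112 protein-coding probes that could be given a symbol, so the tissue label was not checked against markers. No spot was saturated. A spot needed a processed signal of at least 12.7 on the control array, but 17.3 on the I/R array, to be well above background.

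After the probe of AK033774 was left out as a spot outlier on the control array, 1208 probes remained. Of these, 964 were positive and significant over background on the control array and 896 on the I/R array. The 855 probes that passed on both arrays (70.8%) are called detected, against 80.0% of all probes. With the stricter flag, 702 were well above background on the control array, 626 on the I/R array and 607 on both. The probes well above background on the control array only numbered 95 (7.86%) and those on the I/R array only 19 (1.57%). Over all probes these shares were 7.12% and 1.91%, so more signals were lost than gained on the I/R array over all probes too. Spots of the 20 negative sequences also passed the flags on both arrays, 35.2% of them as positive and significant and 11.8% as well above background.

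The detected transcripts covered a wide range of signal. The median of their mean normalized signal over both arrays was 49.4, the lowest was 3.63 and the highest 243561. In other groups of noncoding probes the median signal was 47.1 for lincRNA exons, 30.6 for human lincRNAs and 31.9 for mouse lincRNAs. It was 32.0 for ultraconserved regions and 81.0 for probes without a transcript name. Protein-coding probes had 161. Named probes outside all these groups, which lack the suffix of the EST and cDNA probes, had 91.0. At least 100 units of normalized signal were reached by 305 EST and cDNA probes on the control array and 286 on the I/R array. At least 1000 was reached by 111 on each, at least 10000 by 38 and 40, and at least 100000 by 5 and 6. A probe's brightness also depends on its sequence, so the order of probes by signal is not an order of RNA amounts. Over the 855 detected probes, which share the arrays and the scaling, log2 signals of both arrays correlated with a Pearson r of 0.975.

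The brightest probe on both arrays was that of the cDNA AK216629. Its normalized signal was 264189 on the control array and 224544 on the I/R array, a fold of 0.850 (95% measurement interval, from the scanner software's spot errors, 0.644 to 1.12). The EST AV131371 was next on the control array with 243986, against 210272 after I/R, a fold of 0.862 (0.653 to 1.14). BY652007 had 175572 and 166597. All 3 probes were dimmer after I/R, and each of their intervals included 1.

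AV038163 had the largest change among the 10 brightest probes. Its signal was 81888 on the control array and 215361 on the I/R array, a rise of 2.63-fold (1.99 to 3.47), which moved it from the eighth place to the second among the EST and cDNA probes. BB761138 had 122409 and 196252 and rose 1.60-fold (1.22 to 2.12). These were the only rises among the 10 brightest probes of the control array, and no probe among the 10 fell.

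The other bright probes had close values on both arrays. AK198651 had 109535 and 106668. AV044752 had 88482 and 86284. The cDNA AK215547 had 87735 and 85682. Those 3 folds lay between 0.974 and 0.977. BB723068 had 76716 and 80164, and AV125227 had 76444 and 74726. AA014456, an EST of the bright set that ranked 31 on the control array and 28 on the I/R array, had 14008 and 15167, a fold of 1.08 (0.821 to 1.43), so its change was smaller than its measurement interval.

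**Figure D1:**
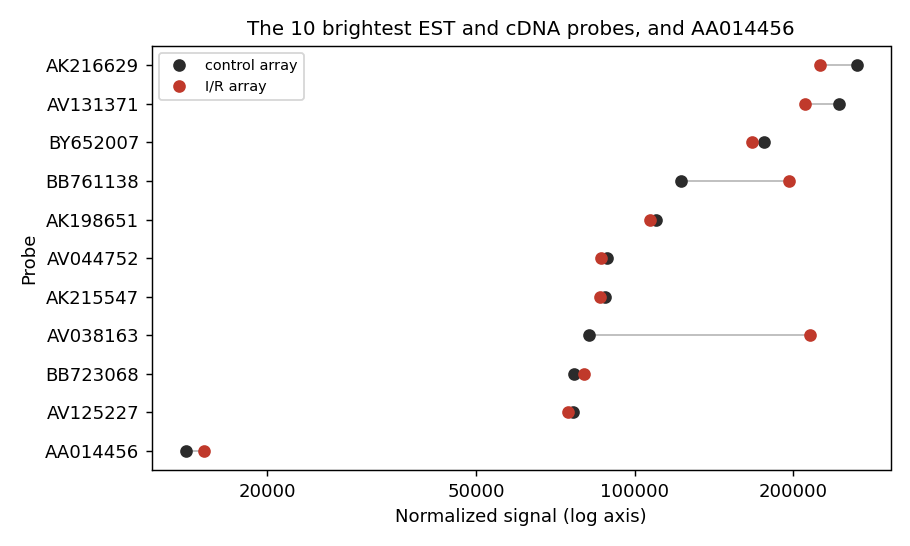
Normalized signal (log axis) of the 10 EST and cDNA probes with the highest signal on the control array, and of AA014456, on the control array (black) and the I/R array (red), with a grey line joining both values of a probe. AV038163 (81888 and 215361) and BB761138 (122409 and 196252) have their I/R value well to the right, and the other 9 probes have folds between 0.850 and 1.08.

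Of the 10 brightest probes on the control array, 8 were also among the 10 brightest on the I/R array, of the 50 brightest 48, and of the 100 brightest 93. Among the 100 brightest, whose control signals reached down to 1288, 9 rose and 7 fell, beside 5.95% and 11.5% of all detected probes with at least that control signal. For the 12 detected probes with a control signal between 65536 and 262144, the median absolute log2 fold was 0.06. Most of the brightest EST and cDNA probes of the control array were therefore among the brightest of these probes after I/R. The overlap was not computed over all probes of the array, so these counts have no background share beside them.

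Among the 855 detected EST and cDNA probes, 122 rose and 152 fell on the I/R array. That was 14.3% and 17.8%, beside 14.2% and 16.3% of all 47735 detected probes, so the shares lay near the background of the array. The median log2 fold of the 855 was -0.09, with quartiles of -0.39 and 0.27, against a median of -0.06 over all detected probes. Normexp background correction gave 29 rises and 23 falls, which turned the share of rises among changed probes from 44.5% to 55.8%. With quantiles over the EST and cDNA probes alone, rises (132) also outnumbered falls (118), while falls outnumbered rises under the other scalings. At least 2-fold rises numbered 50 and falls of at least 2-fold 48, or 5.85% and 5.61%, where 6.88% and 4.5% of all detected probes passed. Rises and falls whose 95% interval left out 1 numbered 79 and 81 (9.24% and 9.47%), beside 10.4% and 10.4% of all detected probes. Among the 607 probes well above background on both arrays 67 rose and 71 fell, which is 11.04% and 11.7%, beside 11.2% and 12.5% of all such probes. The probes nearest to the thresholds were AK038804, with a fold of 1.501 that counted as a rise, BC094425 with 1.496, which did not, BB866160 with 0.6998, which counted as a fall, and BQ562214 with 0.702, which did not.

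**Figure D2:**
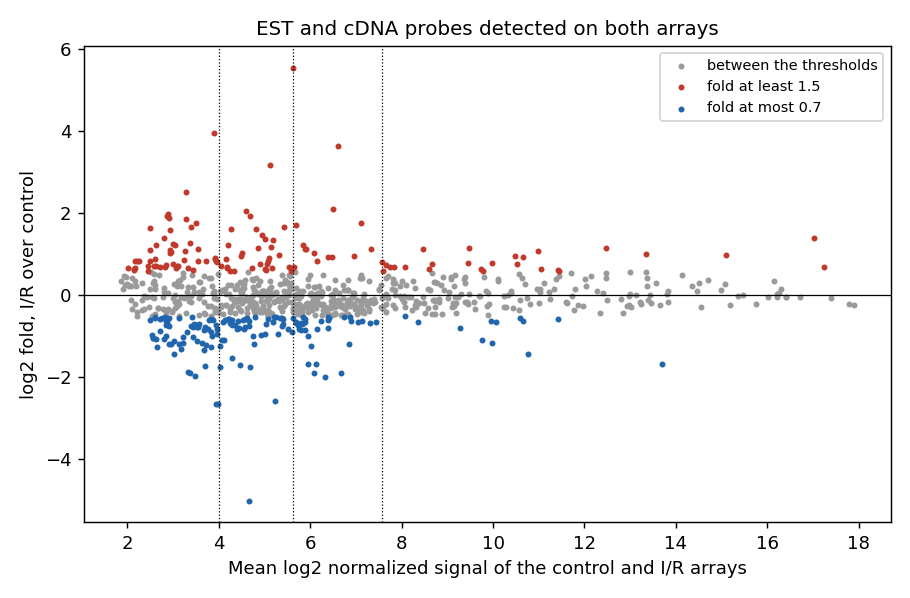
Log2 fold of I/R over control against the mean log2 normalized signal of both arrays for the 855 detected EST and cDNA probes, with rises in red, falls in blue and other probes in grey. Dotted lines mark the level bins, at signals of 16.1, 49.4 and 191, and the scatter narrows from left to right.

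Dim probes passed the fold thresholds more often than bright ones. With the measurement interval taken into account, the lowest level bin had the smallest share of changed probes. The median interval spanned 3.03-fold on each side of a fold in the lowest level bin and 1.32-fold in the highest. To leave out 1, a dim probe thus needed a larger change than a bright one. The detected probes were divided into 4 level bins of near-equal size by their mean log2 signal over both arrays, with limits at signals of 16.1, 49.4 and 191. In the lowest level bin 50 of 214 probes rose and 61 fell, 23.4% and 28.5%, beside 25.6% and 25.6% of all detected probes of that level. In the second level bin 32 of 213 rose and 45 fell, 15.0% and 21.1%, beside 15.2% and 19.1%. The share of probes past either threshold was 51.9% in the lowest level bin and 17.3% in the highest, a ratio of 3. Under normexp, which adds an offset of 50 to the signals, the order was the opposite, with 0% in the lowest level bin and 13.6% in the highest. Without a filter on dim probes the ratio was 0.667, with shares of 11.3%, 62.3%, 31.1% and 16.9% from the lowest level bin to the highest. That setting also counts probes at the floor of both arrays, which have a fold of 1. The order was also the opposite for changes whose interval left out 1, with 7.48% of the lowest level bin (11 rises and 5 falls) and 17.3% of the highest (25 and 12), beside 8.57% and 20.6% of all detected probes of those levels.

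In the third level bin falls outnumbered rises. Of 214 probes 15 rose and 34 fell, 7.01% and 15.9%, beside 11.7% and 13.1% of all detected probes of that level, and the median log2 fold was -0.21 against -0.08. In the highest level bin the reverse was seen. There 25 of 214 probes rose and 12 fell, 11.7% and 5.61%, beside 9.09% and 11.5% of all detected probes of that level. The lincRNA exon probes of the same level had 7.39% rises and 9.28% falls. The median log2 fold of the EST and cDNA probes in this level bin was 0.00, and that of all detected probes -0.05. Rises outnumbered falls in the highest level bin under each other scaling of the arrays, from 20 against 14 with quantiles over the EST and cDNA probes alone to 29 against 10 with cyclic loess. Over all detected probes of that level, rises also outnumbered falls with cyclic loess (10.5% and 9.53%). Falls outnumbered rises there with the 75th percentile (9.62% and 10.7%), without normalization (9.91% and 10.3%) and with normexp (8.01% and 9.57%). Whether these differences from the rest of the array exceed those between replicates could not be tested.

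**Figure D3:**
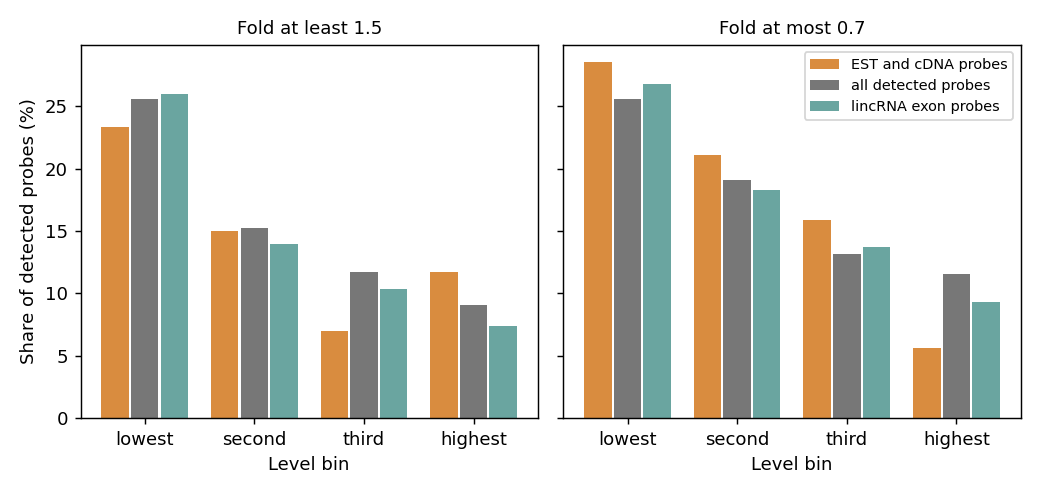
Share of detected probes (%) with a fold of at least 1.5 (left) and at most 0.7 (right) in each level bin, for EST and cDNA probes (orange), all detected probes (grey) and lincRNA exon probes (green). In the highest level bin the EST and cDNA bars stand at 11.7% and 5.61%, beside 9.09% and 11.5% for all detected probes.

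The spread of the folds could be set beside the spread between spots of a single probe, since negative sequences and some protein-coding probes were spotted many times. In the lowest level bin the SD of the log2 fold between EST and cDNA probes was 0.88, and that between repeated spots, pooled over 5 probes of this level, 0.61. In the second level bin the values were 0.85 and 0.46 (3 repeated probes), in the third 0.59 and 0.23 (2 repeated probes). In the highest level bin they were 0.44 and 0.06 (13 repeated probes). The spread between repeated spots was closest to that between transcripts at the dim end and far below it at the bright end. All repeated probes of the lower 2 level bins were negative sequences and all those of the upper 2 were protein-coding, so the kind of repeated probe and the level cannot be told apart.

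**Figure D4:**
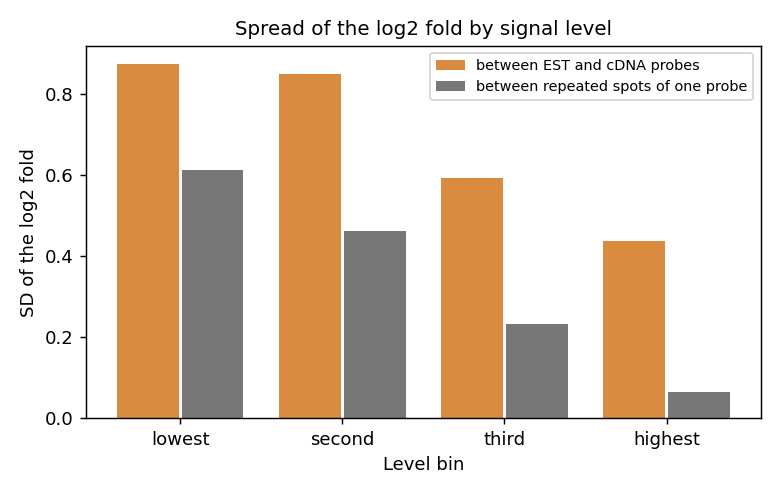
SD of the log2 fold of I/R over control in each level bin, between the detected EST and cDNA probes (orange) and between repeated spots of one probe, pooled over the probes with at least 10 usable spots (grey). The orange bars fall from 0.88 to 0.44 and the grey bars from 0.61 to 0.06.

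All but 1 of the 10 largest changes were found below the highest level bin. Among probes well above background on both arrays, the EST BB854015 had a signal of 27.7 in the control and 346 after I/R and rose 12.5-fold (95% measurement interval 8.99 to 17.4). CK338033 had 43.8 and 189, a rise of 4.32-fold (3.19 to 5.84). CN675130 had 13.2 and 50.2, and rose 3.8-fold (2.34 to 6.16). These 3 control signals were below 49.4, the median signal of the detected transcripts. DV645173 had 75.3 and 257, a rise of 3.42-fold (2.57 to 4.55). CA532251 had 28.4 and 92.8, a rise of 3.27-fold (2.34 to 4.57).

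AA237375 had the largest fall, from 161 on the control array to 40.0 on the I/R array, which was 4.01-fold lower (2.90 to 5.56). AA760039 went from 131 to 35.3 and was 3.72-fold lower (2.65 to 5.22). AW742352 went from 196 to 53.0 and was 3.70-fold lower (2.72 to 5.03). These 3 ESTs and BI966292, which went from 125 to 39.2 and was 3.19-fold lower (2.29 to 4.43), had control signals between 125 and 196 and I/R signals of 35.3 to 53.0. The cDNA AK007918 differed from them in level, with 23635 on the control array and 7413 on the I/R array, 3.19-fold lower (2.42 to 4.21).

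Within the highest level bin, AK007918 was the largest fall and AV038163 the largest rise. BU938249 went from 2853 to 1060, 2.69-fold lower (2.04 to 3.55). BB840167 went from 1516 to 673 and was 2.25-fold lower (1.71 to 2.97). AW120561 went from 1272 to 598 and was 2.13-fold lower (1.61 to 2.81), and these were the only falls of at least 2-fold in the level bin, 4 in all. AA189272 was lower by less, with 813 and 467 (1.74-fold, 1.32 to 2.30).

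Among the bright rises, BY031985 had 480 on the control array and 1065 on the I/R array, a rise of 2.22-fold (1.68 to 2.93). AV310809 had 3812 and 8449 and also rose 2.22-fold (1.68 to 2.92). The cDNA AK135967 had 238 and 522, a rise of 2.19-fold (1.66 to 2.89). BY452895 had 1392 and 2966 and rose 2.13-fold (1.62 to 2.81). The highest level bin held 6 rises and 4 falls of at least 2-fold (2.80% and 1.87%), beside 3.77% and 2.04% of all detected probes of that level. The smallest of the 6 rises was that of BY419828, named after its values were seen, with 7364 and 14867.

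**Figure D5:**
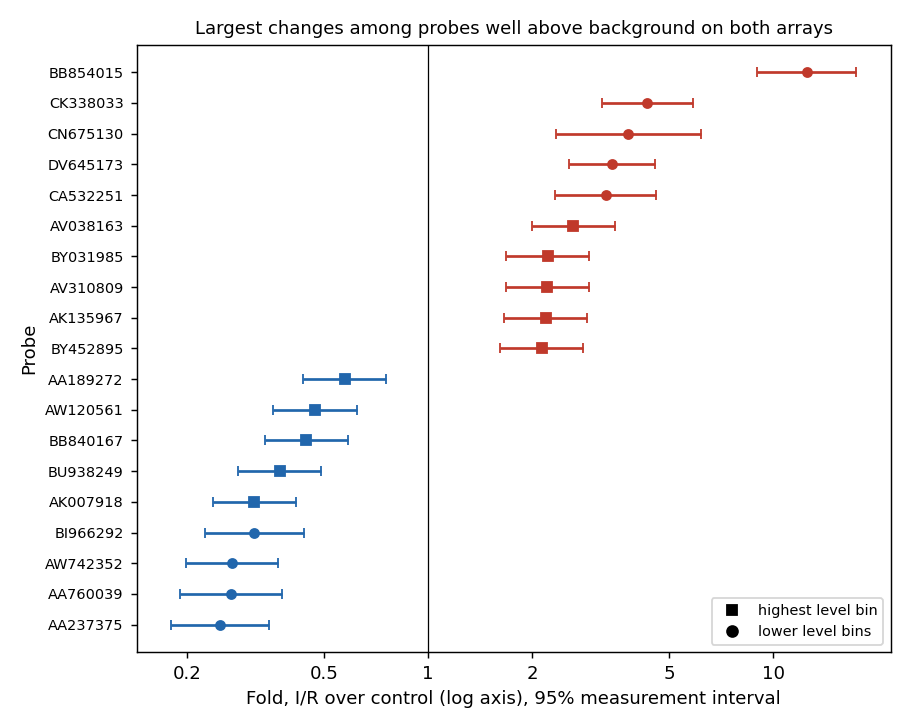
Fold of I/R over control (log axis) with its 95% measurement interval for the largest rises (red) and falls (blue) among EST and cDNA probes well above background on both arrays, with squares for the highest level bin and circles for the lower level bins. BB854015 lies farthest right at 12.5 and AA237375 farthest left at 0.249, and no interval reaches 1.

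Transcripts well above background on 1 array only are given here with a bound in place of a fold. Some of them, such as BC156060, were positive and significant on both arrays. Those were also counted by their fold among the detected probes above. In the bound, the other array stands at the higher of the transcript's own signal and the weakest signal there that was well above background. "At least" gives this bound, which leaves out measurement error. For the transcripts named with a bound, the 95% measurement interval of the fold reached below it. It reached down to 22.9-fold higher for BC156060, 7.69-fold higher for AA591058 and 8.21-fold lower for BY675255. The cDNA BC156060 had 337 after I/R and 7.16, not well above background, in the control, and was at least 27-fold higher. The EST AA591058 had 164 on the I/R array and was at least 13.1-fold higher. CJ160481 had 105 there and was at least 8.42-fold higher. The next bounds were smaller, at least 4.68-fold for AA437991 and at least 3.94-fold for DT912863. Of the 19 transcripts that passed this flag after I/R only, 9 had a bound of 2-fold or more. Bounds were not computed for the other probes of the array, so this count has no background share beside it.

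In the other direction, BY675255 had 175 on the control array and was not above background after I/R, where it was at least 10-fold lower. BQ715416 had 145 on the control array and was at least 8.25-fold lower. CK374433 had 126 and was at least 7.20-fold lower. DV646574 and DT903035 followed with bounds of 5.84-fold and 5.23-fold. Of the 95 transcripts well above background on the control array only, 53 gave a bound at all and 10 a bound of 2-fold or more. The other 42 were no brighter on the control array than the limit of the I/R array. Here too, no share over all probes was computed.

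The cDNA probes differed from the EST probes in these values. Of the cDNA probes 99 of 124 were detected (79.8%), and of the EST probes 716 of 1034 (69.2%). The median control signal of the detected probes was 129 for cDNA and 47.0 for EST records. Among detected cDNA probes 24 rose and 14 fell (24.2% and 14.1%), and among detected EST probes 96 rose and 126 fell (13.4% and 17.6%), beside the 14.2% and 16.3% of all detected probes. The median log2 fold was 0.04 for cDNA and -0.09 for EST probes. Of the 40 detected probes whose letters do not settle the kind of record, 2 rose and 12 fell (5% and 30%). Their median log2 fold was -0.24. They were counted in neither group, so the comparison of cDNA and EST probes depends on where they belong. From the lowest level bin to the highest, 6 of 15, 8 of 21, 3 of 17 and 7 of 46 cDNA probes rose and 6, 1, 4 and 3 fell. Rises thus outnumbered falls in the second bin (38.1% and 4.76%, beside 15.2% and 19.1% of all detected probes of that level) and the highest (15.2% and 6.52%, beside 9.09% and 11.5%), and not in the other two. Among cDNA probes well above background on both arrays 17 of 80 rose and 7 fell (21.25% and 8.75%, beside 11.2% and 12.5% of all such probes). With other scalings the cDNA counts ranged from 22 rises and 14 falls (75th percentile) to 26 and 12 (cyclic loess), and normexp gave 6 and 4. More rises than falls were not particular to cDNA probes. Of the 173 detected named probes that belong to none of the listed groups, 37 rose and 15 fell (21.4% and 8.67%). Of 102 detected protein-coding probes, 23 rose and 11 fell (22.5% and 10.8%). Falls outnumbered rises among lincRNA exon, human lincRNA, mouse lincRNA and ultraconserved region probes and those without a transcript name. With no replicate array, the difference between kinds of record was not tested.

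Most cDNA probes carry the letters AK. Of 75 detected AK probes, 20 rose and 10 fell (26.7% and 13.3%, beside the 14.2% and 16.3% of all detected probes), and 31 were in the highest level bin (41.3%). Of all 47735 detected probes, 16150 were in that level bin, and of the 855 EST and cDNA probes 214. The ESTs with the letters AV had a larger share of bright probes than AK. Of their 38 detected probes 22 were in that level bin (57.9%), with a median control signal of 440. Their 4 rises and 6 falls (10.5% and 15.8%) lay near the shares of the whole array. Among ESTs with the letters BB 21 of 54 were in that level bin (38.9%), and 6 rose and 10 fell (11.1% and 18.5%). The largest set, BY, had 92 detected probes with 15 rises and 17 falls (16.3% and 18.5%). Over the 18 letter codes with at least 20 detected probes, the share of rises ranged from 5.88% for CR (2 of 34) to 30% for BI (6 of 20), and the share of falls from 4.17% for BE (1 of 24) to 35.5% for DV (11 of 31). The codes named here were picked after their values were seen, and with 20 to 92 probes a code these shares were not tested.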

How the data were processed

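Liver RNA of 1 control and 1 I/R sample was measured on 1 single-colour (Cy3) array each. Per the labels and the methods of the study, rRNA was removed, RNA was amplified with random priming, and spots were extracted with Agilent Feature Extraction 11.0.1.1. Intensities were deposited as each spot's processed signal, background-subtracted with a floor near the noise, not normalized between arrays, and the authors' series table held the same intensities for all 62513 spots. Other deposited columns were the spot error, median and background intensities, and flags. The methods of the study name quantile normalization and thresholds of 1.5 and 0.7, which were used here.

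Control spots, 20 negative sequences and outlier-flagged spots were left out, repeated spots were reduced to their mean log2 value, and log2 values of 59692 probes were given the same quantiles on both arrays (limma 3.58.1, R 4.3.3). Python 3.11.15 served for counts and figures. Measurement intervals (95%) extend 1.96 times the standard error to either side, computed from the spot errors of both arrays, and cover spot measurement only. With 1 array for each condition the precision of a difference between conditions cannot be computed. Named transcripts were AA014456, the 10 brightest, the 5 largest changes in each direction overall and in the highest level bin, and the 5 largest bounds in each direction. The naming rule uses no measured value, but this set of probes, the marker lists and the rules for named transcripts were chosen with earlier results of these data known. A simulation of I/R over control with 59692 probes was used to test the steps. Both simulated arrays were built from the control signals, with noise drawn from the spot errors only. The 200 transcripts changed by 2-fold and the unchanged ones were taken from the 607 EST and cDNA probes well above background on both arrays. Of the changed ones 97.5% were recovered, and 2.95% of the unchanged ones were called. Detected probes below that flag were not among them, and variation between animals or hybridizations was not simulated. The 97.5% and 2.95% are therefore not error rates for the counted rises and falls, those of the 607 probes included. Alternatives were other normalizations, normexp, other flags and thresholds, and other level bins. Sequences and genome positions of the transcripts were not used here.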

Additional observations from a re-analysis of the deposited data

How the results depend on the processing

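The median log2 fold of the EST and cDNA probes was between -0.12 and 0 under the alternatives run, and the 10 brightest probes of the control array were the same 10 under the 5 other scalings and corrections. Rises and falls, 122 and 152 as reported, came to 29 and 23 after normexp, to 67 and 71 when the stricter flag was required, to 79 and 81 when the interval had to leave out 1, and to 50 and 48 at 2-fold. The offset of normexp shrinks folds of dim probes by construction, and the stricter flag and thresholds leave fewer probes. The ratio of changed shares between the lowest and the highest level bin, 3 as reported, was 0 after normexp and 1.67 for the stricter flag. Without a filter on dim probes it was 0.667 (the cause was not tested), and there the second level bin had the largest share, 62.3%. The ratio was 4.7 at 2-fold and 0.432 when the interval had to leave out 1, both added after seeing the data. It was 2.89 to 3.14 under the other scalings, level bins and the threshold for falls. In the highest level bin, 25 rises and 12 falls became 6 and 4 at 2-fold, 30 and 21 without the filter, and 21 and 15 with bins by control level. The counts for that level bin and for cDNA records under other settings were added after seeing the data. Of 195 folds of the 39 named transcripts under 5 settings, 173 lay inside that transcript's interval, and the 22 outside it were 19 under normexp and 3 with quantiles over the EST and cDNA probes alone. With that last scaling the fold of BB761138 was 1, since it held the same rank on both arrays. No paired analysis was possible because each condition has a single array. Dim signals limit the lowest level bin, where the median measurement interval spanned 3.03-fold on each side of a fold.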
